A study of Mus musculus with 4 samples.

Results

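The Hox genes of the 4 clusters were chosen by name, as the protein-coding genes of mm10 whose symbol is Hoxa, Hoxb, Hoxc or Hoxd followed by a number. There were 39 of them among 20665 protein-coding autosomal genes: 11 Hoxa genes on chromosome 6, 10 Hoxb genes on chromosome 11, 9 Hoxc genes on chromosome 15 and 9 Hoxd genes on chromosome 2. DNA modification at CCGG motifs had been measured in the left ventricle of 8-week-old C57BL/6 mice, 3 days after an induced myocardial infarction. The 4 samples were infarcted tissue of Neil3-/- mice, non-infarcted tissue of Neil3-/- mice, infarcted tissue of wild-type mice and non-infarcted tissue of wild-type mice, with 1 sample per group and so no replicates. Neil3 encodes a DNA glycosylase that removes oxidized bases. Mice of both genotypes had undergone infarction, so the non-infarcted tissue is not tissue of uninjured mice. The sources used here do not say how many animals stand behind a sample, or whether infarcted and non-infarcted tissue came from the same hearts.

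Hox genes encode homeodomain transcription factors that give cells along the head-to-tail axis their position. Within a cluster the genes lie in the order of their paralog numbers, and low numbers (anterior genes) are used earlier and nearer to the head than high numbers (posterior genes). In mouse embryos Hoxb1 and Hoxa3 are among the genes that mark progenitor cells of the second heart field, while posterior genes are known for roles in the trunk, limbs and genital tract. Polycomb complexes keep Hox genes silent where they are not used, and Hox clusters are known as long stretches of DNA with little methylation.

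HMST-seq reads short tags next to CCGG motifs from 3 libraries per sample. HpaII cuts CCGG only when it is unmodified; MspI cuts it also when the inner cytosine carries a methyl or hydroxymethyl group; and MspI after glucosylation no longer cuts hydroxymethylated sites. The unmodified ratio is HpaII over MspI signal, in percent, and the glucosylation ratio is MspI after glucosylation over MspI without it, in percent. A low glucosylation ratio means that more of the signal was lost on glucosylation. The deposited values are normalized and the 3 libraries of a sample have similar totals, so both ratios are relative values that can exceed 100% and are not shares of DNA molecules.

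The DNA itself shows what the assay could see. The 250 bases upstream of a gene start, from RefSeq on GRCm38.p6, are printed 5′ to 3′ on the strand of the gene, with CCGG motifs in capitals. The table held 24 starts of 22 Hox genes. Over the 300 bases around the start, 79.2% of these held CCGG, against 63.5% of 20085 starts of protein-coding autosomal genes. Hoxd4 and Hoxa6 are shown as the genes with the highest and the lowest unmodified ratio among those with at least 2 CCGG motifs there. Hoxa5 is shown as 1 of 10 Hox genes (32.3%) whose infarcted sample was lower in both genotypes, which held for 28.7% of all genes. Hoxd10, which has the most motifs, and the second start of Hoxd11, where both motifs were listed in all 4 samples, were added after their values were seen.
Hoxd4, chr2:74721728-74721977, + strand: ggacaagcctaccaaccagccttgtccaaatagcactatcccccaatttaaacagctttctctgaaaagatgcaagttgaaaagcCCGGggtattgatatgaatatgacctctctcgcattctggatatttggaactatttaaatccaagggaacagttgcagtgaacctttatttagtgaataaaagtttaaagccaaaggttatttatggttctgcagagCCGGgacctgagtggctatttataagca
Hoxa6, chr6:52208673-52208922, - strand: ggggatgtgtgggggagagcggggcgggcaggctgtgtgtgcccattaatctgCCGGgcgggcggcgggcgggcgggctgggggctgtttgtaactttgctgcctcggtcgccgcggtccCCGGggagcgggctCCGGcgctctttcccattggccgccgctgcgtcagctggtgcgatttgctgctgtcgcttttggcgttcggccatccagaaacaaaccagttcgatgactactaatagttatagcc
Hoxa5, chr6:52204588-52204837, - strand: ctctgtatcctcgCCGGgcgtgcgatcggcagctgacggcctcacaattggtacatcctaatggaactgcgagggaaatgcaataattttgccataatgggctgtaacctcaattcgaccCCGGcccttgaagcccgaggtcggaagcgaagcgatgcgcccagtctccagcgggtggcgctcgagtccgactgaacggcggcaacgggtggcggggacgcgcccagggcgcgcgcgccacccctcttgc
Hoxd11, second start, chr2:74682073-74682322, + strand: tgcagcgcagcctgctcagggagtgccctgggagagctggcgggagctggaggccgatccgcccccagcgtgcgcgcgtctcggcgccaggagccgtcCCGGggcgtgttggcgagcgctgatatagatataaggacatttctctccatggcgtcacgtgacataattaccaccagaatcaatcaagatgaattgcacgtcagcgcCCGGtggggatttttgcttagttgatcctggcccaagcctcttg
Hoxd10, chr2:74691641-74691890, + strand: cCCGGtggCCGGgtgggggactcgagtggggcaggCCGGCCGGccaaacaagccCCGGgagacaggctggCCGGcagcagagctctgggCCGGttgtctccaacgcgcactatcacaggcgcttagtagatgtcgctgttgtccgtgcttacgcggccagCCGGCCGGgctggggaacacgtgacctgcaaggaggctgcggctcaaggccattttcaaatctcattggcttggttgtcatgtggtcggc

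Few of these motifs carried signal in every sample. Of the 2 upstream motifs of Hoxd11, the one 152 bases before the start had unmodified ratios of 251% in Neil3-/- infarcted, 152% in Neil3-/- non-infarcted, 256% in wild-type infarcted and 195% in wild-type non-infarcted tissue. The one 44 bases before it had 184% and 286% in the Neil3-/- samples and 262% and 206% in the wild-type samples, infarcted tissue first in each pair. Both motifs were above 100% in all 4 samples, and they put the samples in different orders. The Hoxa5 motif 130 bases before the start had 301% in Neil3-/- infarcted, 412% in Neil3-/- non-infarcted, 334% in wild-type infarcted and 252% in wild-type non-infarcted tissue. In wild-type tissue this motif was thus higher in the infarcted sample, unlike the value of the whole gene. Of the 9 upstream motifs of Hoxd10 only the one 86 bases before the start was listed in all 4 samples, with a mean of 422%. At Hoxd4 the motif 165 bases before the start was listed, with HpaII signals between 75.8 and 104 but MspI signals of only 3.47 to 7.97, too low to enter the gene's value. None of the 3 motifs of Hoxa6 was listed in all 4 samples.

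Over each gene's span and 1 kb on either side, 459 sites were listed in all 4 samples and 389 had a mean MspI signal of at least 10. Of these sites 52 lay in the windows of more than 1 Hox gene. The Hoxa3 window, for example, shared 25 of its 58 sites, so neighbouring genes are not independent measurements. At least 5 sites were left for 31 of the 39 Hox genes (9 Hoxa, 9 Hoxb, 6 Hoxc and 7 Hoxd) and for 15977 of all genes. A Hox gene had a median of 9 sites, against 17 for all genes.

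Across the series the files listed 1025392 to 1043755 autosomal sites per sample, and 967498 were listed in all 4. Neil3 itself had 15 listed sites in Neil3-/- infarcted, 17 in Neil3-/- non-infarcted, 17 in wild-type infarcted and 19 in wild-type non-infarcted tissue. These counts check the genotype only if sites lie in the deleted part, and where that is is not given. Over the sites listed in each sample, the unmodified ratio of Neil3 was 92.3%, 95.9%, 62.7% and 57.2% in the same order. The cause of this difference between genotypes was not tested. One library was unlike its counterparts, glucosylated MspI of wild-type non-infarcted tissue: over 876803 sites its log2 signal correlated at 0.443 with MspI of the same sample, against 0.619 to 0.650 in the other samples, and at 0.501 with the HpaII library, against 0.372 to 0.447. Every glucosylation ratio of that sample, and each comparison with it, rests on this library.

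All 31 measured Hox genes had an unmodified ratio above the median gene, and above the 75th percentile of all genes, in each of the 4 samples. The median Hox gene had 210% in Neil3-/- infarcted, 224% in Neil3-/- non-infarcted, 223% in wild-type infarcted and 217% in wild-type non-infarcted tissue. The median of all genes was 111%, 110%, 110% and 106% in the same samples. By the mean of the 4 samples, 24 of 31 Hox genes lay above the 90th percentile of all genes (180%), 18 above the 95th (212%) and 2 above the 99th (286%). The difference lay in the HpaII signal. At the median Hox site it was 105 in Neil3-/- infarcted, 104 in Neil3-/- non-infarcted, 90.8 in wild-type infarcted and 108 in wild-type non-infarcted tissue, against 33.2, 33.4, 27.5 and 33.4 at the median autosomal site. The MspI signal at the median Hox site was 38.0, 36.5, 29.9 and 37.7, close to the 35.7, 35.7, 29.5 and 36.2 of all autosomal sites.

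**Figure D1:**
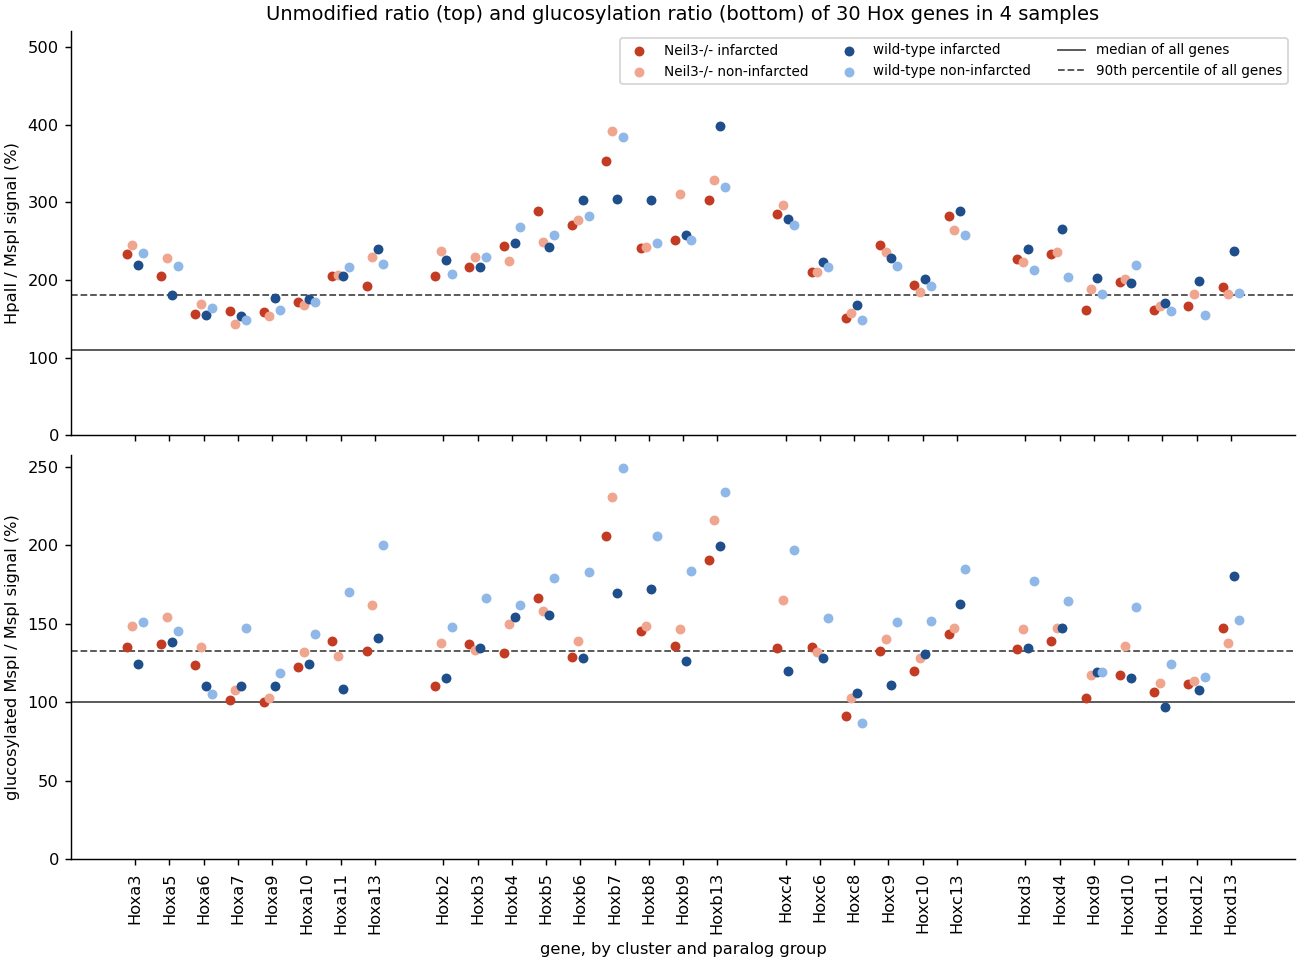
Unmodified ratio (top, HpaII over MspI signal, in percent) and glucosylation ratio (bottom, glucosylated MspI over MspI signal, in percent) of 30 of the 31 measured Hox genes; each point is 1 sample, the solid line is the median of all 15977 genes and the dashed line their 90th percentile, both for the mean of the 4 samples. All genes shown lie above the median for the unmodified ratio in every sample, with Hoxb7 and Hoxb13 highest and Hoxa7 and Hoxc8 lowest.

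The clusters overlapped in their values. The median gene of the Hoxb cluster had 260% by the mean of the 4 samples, that of the Hoxc cluster 223%, that of the Hoxa cluster 208% and that of the Hoxd cluster 199%. The Hoxb cluster had the highest median in all 4 samples, between 249% and 257%. The median site in Hoxb windows had an MspI signal of 26.9, against 35.5 in Hoxa, 37.4 in Hoxc and 49.3 in Hoxd windows. Median HpaII signals in the 4 samples were 82.1 to 103 in Hoxb and 84.2 to 104 in Hoxa windows. They were 97.2 to 111 in Hoxc and 99.6 to 111 in Hoxd windows. The high Hoxb ratio thus went with low MspI and not with more HpaII signal. The lowest of the measured Hoxb genes was Hoxb2, which patterns the hindbrain, at 219%, which is above the median of the Hoxa and Hoxd clusters.

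The highest ratio belonged to Hoxb7, with 352% in Neil3-/- infarcted, 392% in Neil3-/- non-infarcted, 305% in wild-type infarcted and 384% in wild-type non-infarcted tissue. Its 8 sites lie at and around chr11:96285604-96290163. Hoxb13, a gene of the prostate and hindgut that lies apart from the rest of its cluster, came next with 303%, 328%, 399% and 319% in the same order of samples. In the other clusters the highest gene was Hoxc4 (284%, 297%, 278% and 271%), Hoxd4 (234%, 235%, 265% and 204%) and Hoxa3 (234%, 245%, 219% and 234%). The samples of Hoxa3 and Hoxc4 lay close together, while those of Hoxb7 ran from 305% to 392% and those of Hoxb13 from 303% to 399%.

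The lowest ratio belonged to Hoxa7, with 160% in Neil3-/- infarcted, 144% in Neil3-/- non-infarcted, 154% in wild-type infarcted and 149% in wild-type non-infarcted tissue. Hoxc8, which patterns the trunk, had 150%, 157%, 168% and 148%, and Hoxd11, a limb gene, had 161%, 166%, 170% and 159%. Even Hoxa7 was at the 80.6th percentile of all genes. Its order relative to Hoxc8 changed between samples. Over the 4 samples the summed HpaII signal was 666 to 845 for Hoxa7 (7 sites) and 620 to 765 for Hoxb7 (8 sites). The summed MspI signal was 433 to 544 for Hoxa7 and 190 to 217 for Hoxb7. The lowest and the highest gene thus differed mainly in MspI, and Hoxb7 did not have more HpaII signal.

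By paralog group, no run from anterior to posterior was seen over the series of groups. The 3 genes of group 4 (Hoxb4, Hoxc4 and Hoxd4) had a median of 246%, the 2 of group 7 (Hoxa7 and Hoxb7) were the most unlike each other at 151% and 358%, the 3 of group 10 had 193%, the 2 of group 11 had 186%, the single measured gene of group 12 (Hoxd12) had 176%, and the 4 of group 13, the last of each cluster, had 247%. Posterior genes (groups 9 to 13, 14 measured) had a median of 193% in Neil3-/- infarcted, 195% in Neil3-/- non-infarcted, 204% in wild-type infarcted and 204% in wild-type non-infarcted tissue. Anterior genes (groups 1 to 8, 17 measured) had 227%, 229%, 225% and 218%. The posterior median was lower in 4 of 4 samples, by 25.5 ± 10.1 percentage points (SD over the 4 samples). An exact sign-flip test over 4 samples cannot give a p below 0.125, so the difference has no test. It did not run through every cluster. Posterior minus anterior was -47.9 percentage points in the Hoxd cluster (lower in 4 of 4 samples) and -10.4 in the Hoxa cluster (lower in 3 of 4), but 17.1 in the Hoxc cluster and 54.9 in the Hoxb cluster, where it was higher in all 4. The last value rests on Hoxb9 and Hoxb13 alone.

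The 8 Hox genes with under 5 usable sites were Hoxa2, Hoxa4, Hoxb1, Hoxc5, Hoxc11, Hoxc12, Hoxd1 and Hoxd8, with 2 to 4 sites each. Hoxb1, a gene of the hindbrain and of heart progenitors, had 350% in Neil3-/- infarcted, 303% in Neil3-/- non-infarcted, 426% in wild-type infarcted and 274% in wild-type non-infarcted tissue over 4 sites. Hoxc12 had the most extreme values, 880%, 716%, 446% and 760%, from 2 sites with a summed MspI signal of 23.4 to 33.8. Hoxd1 was the lowest of the 8, with 162%, 168%, 155% and 193%. All 8 were above the median of all genes in each sample, as descriptions from few sites.

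Along the DNA, the Hox clusters were marked by the near absence of sites with a low unmodified ratio. Of the 389 sites in Hox gene windows, 1 (0.257%) had a mean unmodified ratio under 50%, 3 (0.771%) were under 70% and 15 (3.86%) under 100%. Between the windows none of 72 sites was under 50%. In the 100 kb on either side of the clusters 73 of 439 sites (16.6%) were under 50%, and over all autosomes 236447 of 876803 (26.97%). The median site had 274% in the windows, 318% between them, 141% in the flanks and 91.2% over all autosomes. In each sample alone, 1 or 2 of the 389 sites were under 50%, against 28.5% in Neil3-/- infarcted, 27.9% in Neil3-/- non-infarcted, 28.9% in wild-type infarcted and 29.6% in wild-type non-infarcted tissue over all autosomal sites.

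**Figure D2:**
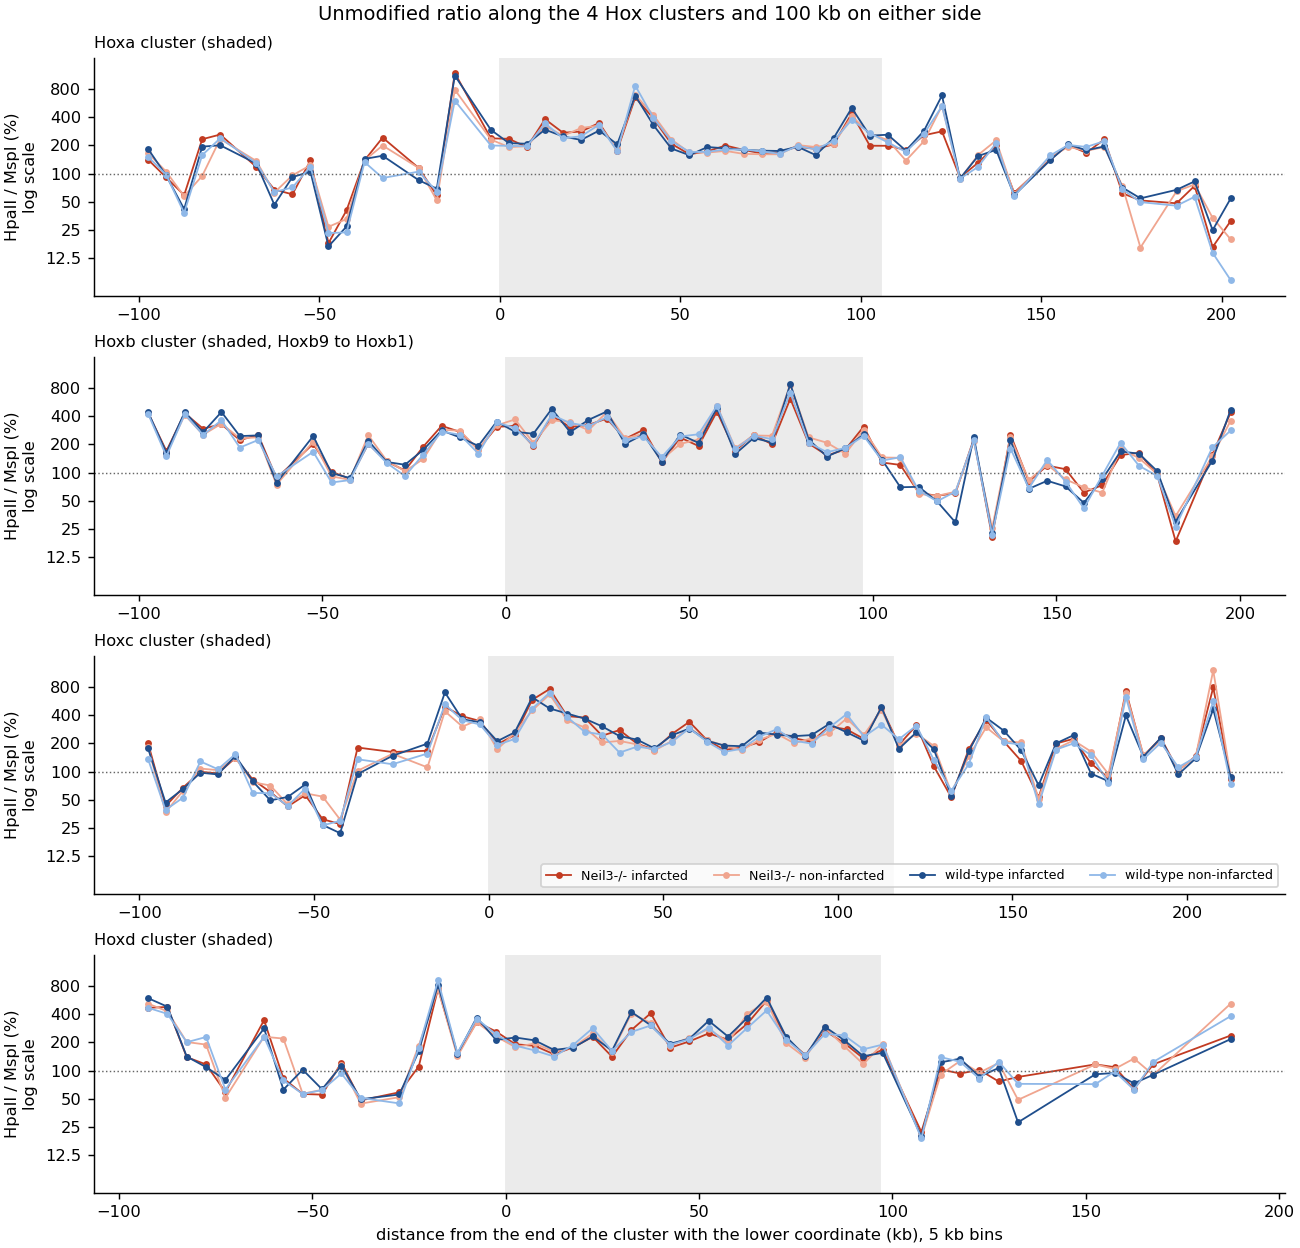
Unmodified ratio in bins of 5 kb along each Hox cluster (shaded) and 100 kb on either side, against the distance from the end of the cluster with the lower coordinate (for Hoxb, Hoxc and Hoxd the ends at Hoxb9, Hoxc13 and Hoxd13), on a log scale; each line is 1 sample and the dotted line marks 100%. Within the shaded parts the 4 lines stay above 100%, while the flanks hold bins below 50%. The samples lie apart in some shaded bins, for example from 470% to 758% in the Hoxc bin that starts at 15 kb.

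The 3 sites under 70% can be named. The site at chr2:74765434-74765437, just beyond Hoxd1, had 26.4% in Neil3-/- infarcted, 26.0% in Neil3-/- non-infarcted, 12.4% in wild-type infarcted and 21.0% in wild-type non-infarcted tissue. It was low in every sample, with HpaII signals of 3.57 to 7.92 and MspI signals of 28.9 to 30.5. The site at chr2:74716589-74716592 in the Hoxd3 window had 33.7%, 78.3%, 75.3% and 38.8%, and that at chr15:103002215-103002218 in Hoxc6 had 72.5%, 69.2%, 52.7% and 73.1%. At the other end, the highest site per cluster with a mean MspI signal of at least 20 had a mean of 634% (chr6:52222258-52222261, by Hoxa9), 625% (chr15:102920167-102920170, by Hoxc13), 560% (chr11:96295562-96295565, in Hoxb6) and 549% (chr2:74749224-74749227, by Hoxd3). The mean MspI signals of these highest sites were 20.7 to 22.3, just above that minimum. The lowest such Hoxa site, 81.2% at chr6:52204166-52204169, lies in the windows of Hoxa3, Hoxa5 and Hoxa6. Its HpaII signals were 134 to 194, against 120 to 155 at the highest Hoxa site. Its mean MspI signal was 201, against 22.3, so these Hoxa sites differed mainly in MspI. The lowest such Hoxb site, by Hoxb6, had 105%, and none of the 90 sites in Hoxb windows had a mean below 100%.

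Counted as consecutive listed sites with no site under 50%, the 4 longest unbroken runs on the autosomes were the 4 Hox clusters. The Hoxc run held 166 sites over 202 kb, the Hoxa run 158 sites over 148 kb, the Hoxd run 119 sites over 119 kb together with Evx2, and the Hoxb run 115 sites over 135 kb from Hoxb9 to Hoxb1. The next run, at Zic1 and Zic4, held 69 sites, and 344 runs on the autosomes held at least 30. Hoxb13 lay in a separate run of 50 sites with Ttll6, at rank 22. The clusters took the first 4 ranks in each sample alone, with a threshold of 70%, with no minimum signal and with a minimum of 20. The Hoxd run was broken in Neil3-/- infarcted tissue alone, in wild-type non-infarcted tissue alone and at 70%, where it held 71 sites over 70.5 kb with 7 of the 9 genes, against 65, 64 and 64 sites for the longest run without a Hox gene. At 70% the Hoxc run held 112 sites with 7 genes. With a threshold of 100% the Hoxb run was 1st, Hoxa 3rd, Hoxc 8th and Hoxd 14th. By length in kb the 4 runs ranked from 76th to 492nd.

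**Figure D3:**
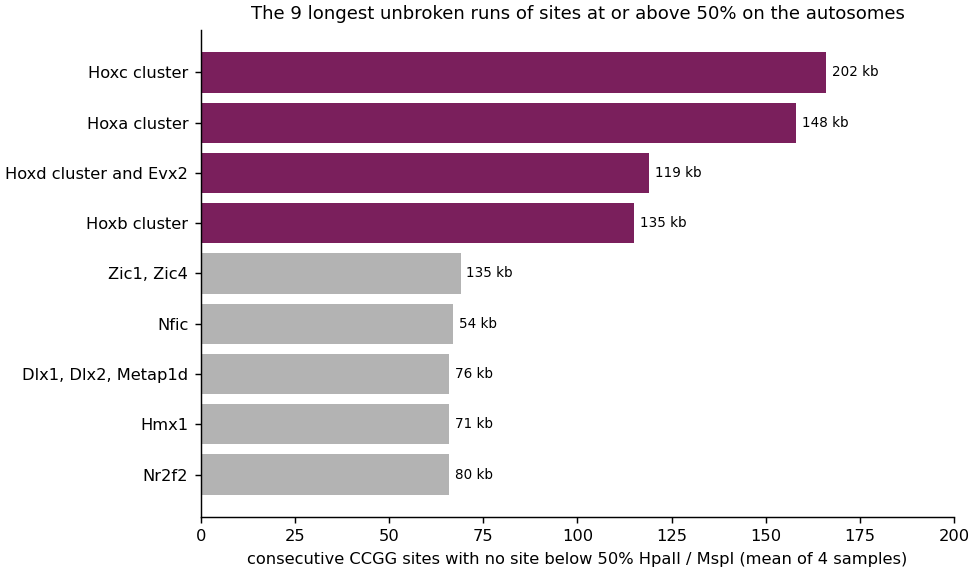
The 9 longest runs of consecutive CCGG sites with no site below an unmodified ratio of 50% (mean of the 4 samples); bars give the number of sites, labels the length in kb and the protein-coding genes within. The 4 Hox clusters hold 115 to 166 sites, against 69 for the next run.

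The high ratio was found too at sites called isolated here, which had no other listed site nearby. Motifs not listed in all 4 samples were not counted as neighbours, so an isolated site can still lie among other CCGG motifs. Sites with no other listed site within 500 bp had a median of 309% in Hox windows (84 sites), against 79.7% elsewhere on the autosomes (482994 sites). With 1 neighbour the medians were 263% and 101%, with 2 neighbours 319% and 118%, and with 3 or 4 neighbours 204% and 143%, Hox windows first. With 5 to 7 neighbours the order turned, at 139% for 11 Hox sites and 170% for 2893 others. Outside Hox windows the median went up with each class, and in Hox windows the isolated sites were above the densest ones. The MspI signal of isolated sites was 27.01 in Hox windows and 32.4 elsewhere.

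**Figure D4:**
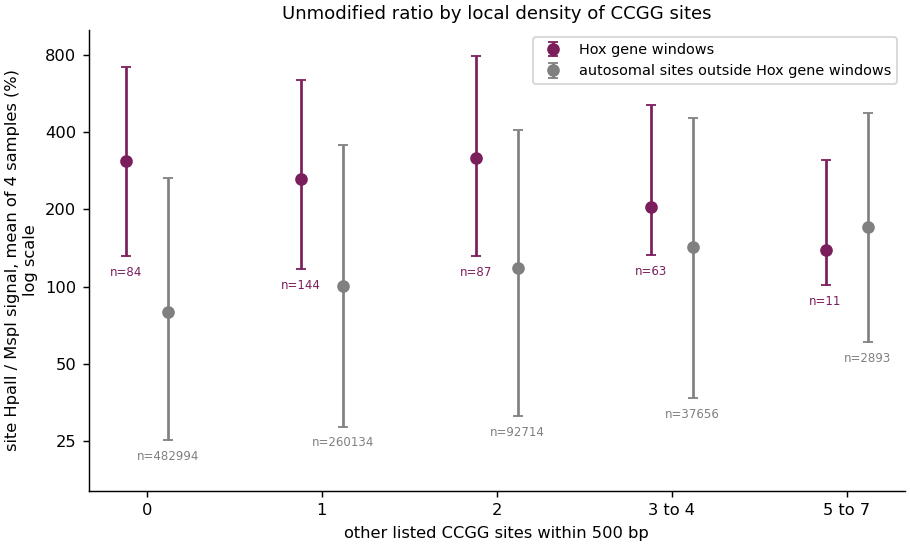
Unmodified ratio of single CCGG sites by the number of other listed sites within 500 bp, in Hox gene windows and elsewhere on the autosomes, on a log scale; points are medians, bars run from the 10th to the 90th percentile of sites, and n is the number of sites. Hox sites with no other listed site within 500 bp have a median of 309% against 79.7% elsewhere, and at the highest density of listed sites the order turns.

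The glucosylation ratio of Hox genes was also above that of most genes. The median Hox gene had 133% in Neil3-/- infarcted, 138% in Neil3-/- non-infarcted, 128% in wild-type infarcted and 154% in wild-type non-infarcted tissue, against 101%, 100%, 98.9% and 101% for all genes. By the mean of the samples 30 of 31 Hox genes lay above the median gene and 19 above the 90th percentile (133%). The exception was Hoxc8, at 91.3%, 103%, 106% and 86.7%. The lowest of the other clusters were Hoxa9, a gene of blood progenitors, with 100%, 103%, 110% and 119%, Hoxd11 with 106%, 112%, 97.3% and 125%, and Hoxb2 with 110%, 138%, 116% and 148%. The highest were Hoxb7 (206%, 231%, 170% and 249%) and Hoxb13 (191%, 217%, 200% and 234%). Across the 31 genes the glucosylation ratio correlated with the unmodified ratio at 0.756 to 0.874 in the 4 samples, and at 0.600 to 0.757 across all genes. Both ratios share their MspI denominator, and neighbouring genes share sites.

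Other genes whose unmodified ratio lay in the Hox range, 3035 in number, had a median unmodified ratio of 181% and a median glucosylation ratio of 128% by the mean of the samples, set beside 219% and 140% for Hox genes.

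The infarct was compared first, as infarcted against non-infarcted tissue within a genotype. Differences are log2 ratios relative to the median gene, and a gene was counted when it differed by at least 0.3, about 1.23-fold. With 1 sample per group this is a rule of size and not a test, and a change of modification within cells cannot be told apart from a change in the mix of cells. In wild-type tissue 5 of 31 Hox genes were past the rule for the unmodified ratio, where the background was 5.23% of all genes and 8.62% of genes with 5 to 20 sites. Hoxd4, Hoxd13 and Hoxd12 were higher in infarcted tissue (background for higher 2.69%), by 0.32, 0.32 and 0.31. Hoxd13, the last gene of its cluster and a gene of digits, had 237% in infarcted and 183% in non-infarcted wild-type tissue, and Hoxd12 had 199% and 155%. Hoxb7 and Hoxa5 were lower (background for lower 2.53%), at -0.39 and -0.32. Hoxa5, known for lung and neck skeleton, had 181% in infarcted and 218% in non-infarcted wild-type tissue. Hoxd10, next in order, was at -0.22. The 31 genes leaned neither way, with a median of 0.01 and 14 of 31 below 0.

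In Neil3-/- tissue 1 of 31 Hox genes was past the rule (background 2.74%, for lower 1.23%). Hoxb9, a trunk gene, had 252% in infarcted and 311% in non-infarcted Neil3-/- tissue, a difference of -0.32. Hoxa13 (-0.27) and Hoxd9 (-0.25) were next, and on the higher side Hoxb5 (0.20) and Hoxa7 (0.14). The genes past the rule in wild-type tissue were at -0.03 (Hoxd4), 0.05 (Hoxd13), -0.14 (Hoxd12), -0.17 (Hoxb7) and -0.17 (Hoxa5) in Neil3-/- tissue. Hoxb7 and Hoxa5 were thus lower in infarcted tissue of both genotypes, and none of the 3 Hoxd genes was past the rule in Neil3-/- tissue; whether the infarct difference itself differed between genotypes was not tested. The infarct difference had the same sign in both genotypes for 17 of 31 Hox genes and for 57.4% of all genes, from pairs of samples that share none.

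For the glucosylation ratio 13 of 31 Hox genes were past the rule in wild-type tissue (background 13.2%), 12 of them lower in infarcted tissue (background for lower 8.86%; 20.6% in either direction for genes with 5 to 20 sites). Hoxc4 had 120% in infarcted and 197% in non-infarcted tissue (-0.69), Hoxa11 109% and 170% (-0.62), and Hoxb7 170% and 249% (-0.52). On the higher side stood Hoxc8 (0.32), Hoxd13 (0.28) and Hoxa6 (0.10). The median Hox gene was at -0.23. Among other genes in the Hox range of unmodified ratio the median was -0.21 and 988 of 3035 (32.6%) were past the rule, so genes with a like unmodified ratio were lower as well. This comparison rests on the glucosylated wild-type non-infarcted library that was unlike the others; its part in the difference was not tested.

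In Neil3-/- tissue, which does not use that library, 1 of 31 Hox genes was past the rule (background 3.31%, for lower 2.14%). Hoxb2 had 110% in infarcted and 138% in non-infarcted tissue (-0.33). Hoxc4 (-0.30, just short of the rule) and Hoxa13 (-0.29) followed, and on the higher side Hoxa11 (0.10), Hoxd13 (0.09) and Hoxb5 (0.07). The median Hox gene was at -0.11, with 26 of 31 below 0, and the median of other genes in the Hox range was -0.04, with 1889 of 3035 below 0. The ratio was lower in infarcted tissue of both genotypes for 23 of 31 Hox genes (74.2%), for 54.1% of other genes in the Hox range and for 27.04% of all genes.

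**Figure D5:**
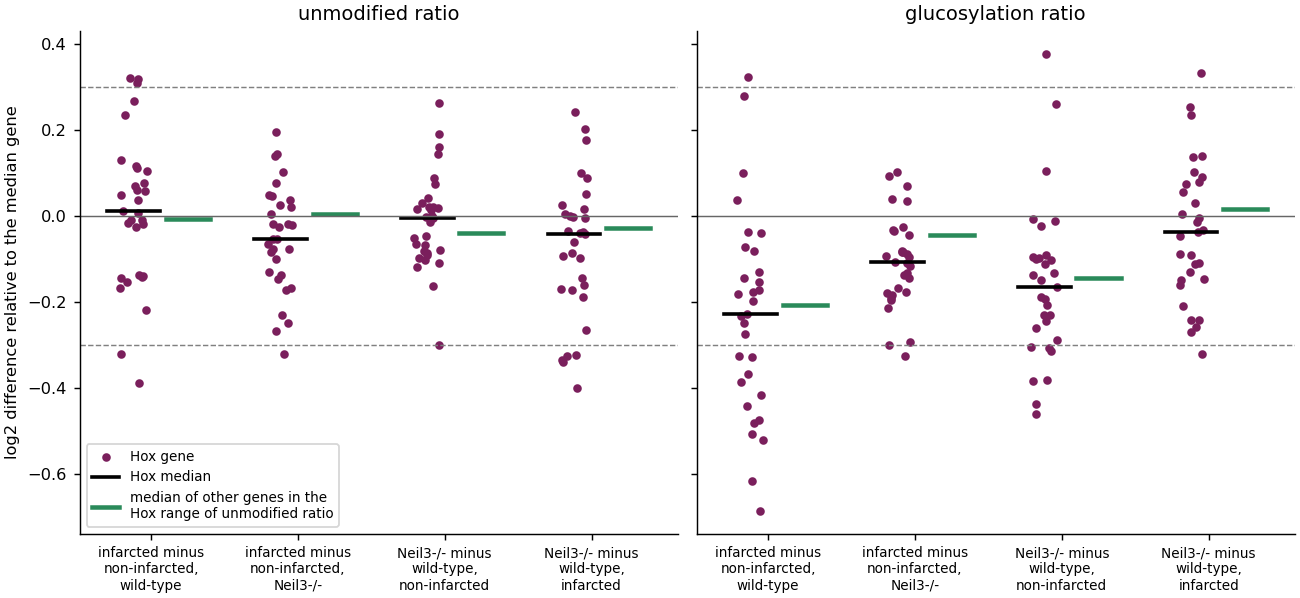
Log2 difference of the 31 Hox genes relative to the median gene in the 4 comparisons, for the unmodified ratio (left) and the glucosylation ratio (right); points are genes, black bars the Hox median, green bars the median of 3035 other genes in the Hox range of unmodified ratio, and dashed lines the rule of 0.3. The Hox median of the glucosylation ratio lies at -0.23 for infarct in wild-type tissue, beside -0.21 for the other genes.

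Genotype was compared next, as Neil3-/- against wild-type within a tissue. Each of these comparisons shares a sample with each infarct comparison, so they are not independent of those. In infarcted tissue 5 of 31 Hox genes were past the rule for the unmodified ratio (background 3.61%), all lower in Neil3-/- tissue (background for lower 2.04%; 6.04% in either direction for genes with 5 to 20 sites). Hoxb13 had 303% in Neil3-/- and 399% in wild-type infarcted tissue (-0.40), Hoxd9 161% and 202% (-0.34), and Hoxb8 242% and 303% (-0.33). Hoxa13 had 193% in Neil3-/- and 240% in wild-type infarcted tissue (-0.32), and Hoxd13 191% and 237% (-0.32). For each of these 5 genes the wild-type infarcted sample was the highest of the 4 samples. That sample also enters the comparison of infarct in wild-type tissue, where Hoxd13 was past the rule as well. The posterior genes number 4 of the 5, and 1 anterior gene, Hoxb8, completes them; each has 6 or 7 sites. With at least 10 sites per gene none of 15 was past the rule. On the higher side stood Hoxb5 (0.24), Hoxb7 (0.20) and Hoxa5 (0.18). Of the 14 posterior genes 12 were below 0, with a median of -0.07, and of the 17 anterior genes 9, with a median of 0.00. Among other genes in the Hox range of unmodified ratio 1752 of 3035 were below 0, with a median of -0.03. The difference between posterior and anterior genes was not tested here.

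In non-infarcted tissue 1 of 31 Hox genes was past the rule (background 2.51%, for lower 1.41%). Hoxb4, known for blood stem cells, had 224% in Neil3-/- and 268% in wild-type tissue (-0.30) over 5 sites. Hoxb9 was on the higher side (0.26), with Hoxd12 (0.19) and Hoxd4 (0.16). The 5 genes lower in infarcted Neil3-/- tissue were at 0.00 (Hoxb13), 0.02 (Hoxd9), -0.08 (Hoxb8), 0.01 (Hoxa13) and -0.05 (Hoxd13) here. None of them was past the rule in both tissues.

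For the glucosylation ratio, 8 of 31 Hox genes were past the rule in non-infarcted tissue (background 9.85%), 7 of them lower in Neil3-/- tissue (background for lower 5.66%). Hoxb8 had 149% in Neil3-/- and 206% in wild-type tissue (-0.46), Hoxa7 108% and 148% (-0.44), and Hoxa11 129% and 170% (-0.38). Hoxa6 was higher, with 136% in Neil3-/- and 105% in wild-type tissue (0.38). The Hox median of -0.16 stood beside -0.14 for other genes in the Hox range, of which 635 of 3035 (20.9%) were past the rule. Among other genes with 5 to 20 sites the share was 15.5%, and among Hox genes 25.8%. The comparison again uses the library that was unlike the others. In infarcted tissue 2 of 31 were past the rule (background 4.22%). Hoxa11 was higher, with 139% in Neil3-/- and 109% in wild-type tissue (0.33), and Hoxd13 lower, with 147% and 181% (-0.32).

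The fit of both effects over all 4 samples called no gene. With limma, 0 of 31 Hox genes and 0 of 15977 genes (0%) had an adjusted p under 0.05 for infarct or for genotype, with 1 residual degree of freedom. At an unadjusted p under 0.05 there were 2 Hox genes for infarct (background 9.79%), Hoxb7 at a log2 difference of -0.28 and Hoxa5 at -0.25, both with a limma adjusted p of 0.465. For genotype there were 0 (background 6.27%), and the smallest limma adjusted p of a Hox gene was 0.787, for Hoxb8 at -0.21.

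Lists of genes that work with Hox proteins or control them had lower median ratios than the Hox genes. The 9 TALE cofactors, the Meis, Pbx and Pknox homeodomain partners of Hox proteins, had a median unmodified ratio of 120% by the mean of the samples, from 98.0% (Pknox1) to 152% (Meis3), and 0 lay above the 90th percentile of all genes. The 29 measured Polycomb genes, which silence Hox clusters, had a median of 124%, and 5 lay above that percentile. Cbx8 (247%), a chromobox subunit of Polycomb complexes, was 1 of them. The 10 measured trithorax and H3K27 demethylase genes, which keep Hox genes active, had a median of 106%. The 17 measured neighbours and ParaHox genes had a median of 129%. Of these 8 were in the Hox range, the homeobox genes Evx1 (191%), Evx2 (201%), Gsx1 (186%), Gsx2 (211%), Cdx2 (183%) and Pdx1 (212%) and 2 genes without a homeobox, Smug1 (180%), which encodes a DNA glycosylase, and Lnpk (152%). The other 9, 1 of them a homeobox gene, lay between 79.6% (Calcoco1) and 129%. The 21 measured housekeeping genes had a median of 144%. The lists also differed in sites per gene. The median was 35 for TALE cofactors, 17 for Polycomb and 28.5 for trithorax and H3K27 demethylase genes. It was 16 for neighbours and ParaHox genes and 9 for housekeeping genes, as for Hox genes. Genes other than Hox with 5 to 20 sites had a median ratio of 124%, against 109% for all genes. The part of the number of sites was not tested. The limma fit called no gene of these lists for infarct or genotype. For infarct in wild-type tissue 0 of 9 TALE cofactors, 1 of 29 Polycomb genes and 0 of 10 trithorax genes were past the rule for the unmodified ratio. So were 0 of 17 neighbours and 2 of 21 housekeeping genes, where the background was 5.23% of all genes. For the glucosylation ratio the counts in the same order were 0 of 9, 8 of 29, 3 of 10, 4 of 17 and 6 of 21 (background 13.2%). Those counts rest on the library that was unlike the others.

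Markers of the cell types of the heart are the measure of the mix of cells that these data allow, through modification and not expression. Of 20 measured cardiomyocyte markers 15 were below 0 for infarct in wild-type and 14 in Neil3-/- tissue, with medians of -0.17 and -0.12. Of 17 leukocyte markers 12 and 10 were above 0, with medians of 0.12 and 0.01. Cardiomyocyte markers had a median unmodified ratio of 138% in Neil3-/- infarcted, 147% in Neil3-/- non-infarcted, 136% in wild-type infarcted and 139% in wild-type non-infarcted tissue, and leukocyte markers 100%, 99.7%, 107% and 91.6%. Of 16 endothelial markers 3 and 4 were above 0, and of 15 fibroblast and epicardial markers 8 and 10, for wild-type and Neil3-/- tissue. For genotype in infarcted tissue, where 5 Hox genes were lower in Neil3-/- tissue, 16 of 20 cardiomyocyte markers were above 0, with a median of 0.10. There 10 of 16 endothelial, 5 of 15 fibroblast and epicardial and 8 of 17 leukocyte markers were above 0, with medians of 0.06, -0.04 and -0.05. The part of the mix of cells in the Hox differences was not tested.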

How the data were processed

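DNA of 4 left ventricle samples, 1 per group, had been made into 3 HMST-seq libraries each, per the labels' protocols. The deposited files give, for every CCGG site, 1 signal value per library that the authors had normalized; how, with which aligner and from how many animals, the sources used here do not say. The build is mm10, according to the submitters' processing notes; the files count from 0 and were turned to counting from 1, checked against RefSeq sequence. The number of tags is unknown, so no counting interval is given.

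Sites on the 19 autosomes listed in all 4 samples, with a mean MspI signal of at least 10, were summed over each gene's span and 1 kb on either side, with at least 5 sites per gene. Gene spans came from RefSeq on GRCm38.p6. Ratios of summed signal were compared on a log2 scale after centring on the median gene. Single comparisons have 1 sample a side, so genes were counted by the size of the difference. Infarct and genotype effects of the unmodified ratio were fitted by limma 3.58.1 in R 4.3.3, additively, over all genes with Benjamini-Hochberg adjustment; the fit was tested on simulated data. Other steps used Python 3.11.15, numpy 2.4.6, pandas 2.3.3 and scipy 1.17.1. The members, lists, size rule and alternatives were chosen with earlier results of these data known. All 39 Hox genes are counted, and the values of 1 of them and of a few other genes are not reported here. Values were named for the highest and lowest gene and site per cluster, the lowest glucosylation ratio per cluster, and the 3 largest differences in each direction per comparison. The setting of the signal minimum, the window, the site minimum, the summary over sites and the size rule were varied.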

Additional observations from a re-analysis of the deposited data

How the results depend on the processing

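Of 121 alternatives over 13 results, 74 were counted as close to the reported value and 47 as moved. Posterior minus anterior, the only result that can change sign, stayed negative under all of its alternatives. The others are levels and counts, which have no direction to change. Under all of the alternatives in signal, window, sites and scaling the median Hox gene stayed above the 94th percentile of all genes for the unmodified ratio. The level moved with the signal minimum, to 248.1% with none and 183% with 20, and with the median of site ratios, to 235% (glucosylation ratio 151.4%). Posterior minus anterior was -47.59 percentage points with no minimum, -45.4 over gene spans only and -40.37 with the median of site ratios.

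Counts past the size rule are given in the order infarct in wild-type, infarct in Neil3-/-, genotype in non-infarcted and genotype in infarcted tissue, where not named. The matching shares of all genes are not given here, so these counts have no background and show only how the Hox counts moved. With a difference of at least 20 percentage points they were 11, 9, 7 and 12 for the unmodified and 20, 5, 14 and 7 for the glucosylation ratio. At ratios as high as those of Hox genes, 20 percentage points are a smaller log2 difference than at the median gene. With the median of site ratios they were 10, 6, 3 and 9 for the unmodified and 19, 6, 9 and 7 for the glucosylation ratio. With at least 10 sites per gene they were 2, 0, 0 and 0 for the unmodified ratio, and 6, 4 and 0 for infarct in wild-type, genotype in non-infarcted and genotype in infarcted tissue for the glucosylation ratio, with fewer genes measured. For infarct in Neil3-/- tissue the unmodified count was 0 with no minimum signal and with 2 kb on either side and 2 over gene spans only, and the glucosylation count was 3 with no minimum signal, with a minimum of 20, over gene spans only and with 2 kb, and 4 with each site counted for 1 gene. The unmodified count for genotype in non-infarcted tissue was 0 in all of these and when centred on other genes with 5 to 20 sites. A minimum of 20 gave 2 for infarct in wild-type tissue, and 2 kb gave 3 for genotype in infarcted tissue (glucosylation ratio 1, as without centring). Centring on other genes with 5 to 20 sites, chosen after seeing the data, gave 5 for the glucosylation ratio and genotype in non-infarcted tissue. For the glucosylation ratio and infarct in wild-type tissue, no minimum signal gave 18 of 34 genes and the median of site ratios 19 of 31. Both were counted as close to the reported 13 of 31, though higher. The cause of these shifts was not tested.

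No paired analysis was possible because the labels give no replicate numbers and there is 1 sample per group. The unknown number of tags, the few sites of most Hox genes and the shared windows limit single genes, and the scaling of the libraries removes absolute levels of modification.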

Other observations

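In the order of runs of sites with no unmodified ratio under 50%, the 5 after the Hox clusters held Zic1 and Zic4 (69 sites over 135 kb), Nfic (67 sites over 53.9 kb), Dlx1 and Dlx2 together with Metap1d (66 sites over 76.4 kb), Hmx1 (66 sites over 70.8 kb) and Nr2f2 (66 sites over 79.9 kb). Zic genes encode zinc finger factors of the nervous system; Dlx genes encode homeodomain factors of the forebrain and face. These genes were named after their values were seen.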
